A study of Mus musculus with 18 samples.

Results

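Spermatocytes isolated from the testes of mice at postnatal day 18 (P18) were compared between knockout males (KO, Zfp541-/-) and heterozygous males (Het, Zfp541+/-). The comparison took the 6 libraries whose labels name spermatocytes, 3 KO and 3 Het, of 18 libraries in the series. A further 6 libraries of whole testis at P18, 3 KO and 3 Het, served to check the cell type and for the closing comparison. All mice were C57BL/6J and no treatment is named. The controls carry 1 disrupted allele, so every difference below is KO against Het, and no wild type was analysed here. The labels call the libraries biological replicates. They do not say whether each came from a separate animal or a pool, how the cells were isolated, how pure they were, or which part of the gene was deleted. The p-values measure the spread between these samples.

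Spermatocytes are male germ cells in meiotic prophase, in which homologous chromosomes pair, recombine and are held together by the synaptonemal complex. The longest stage, pachytene, is also when a large set of genes for the later spermatid and sperm is switched on, including those for the flagellum, the acrosome and sperm metabolism. X-linked and Y-linked genes are silenced at the same stage within the sex body. Zfp541 encodes a zinc-finger protein with ELM2 and SANT domains, the domains by which several corepressors bind histone deacetylases, and it is found with KCTD19, HDAC1, HDAC2 and DNTTIP1 in spermatocytes.

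The deposited values were RPKM, reads scaled to gene length and to the library's total. After rescaling between libraries they are called levels here. Total reads read back from the values were 14.77, 9.26 and 18.31 M (megareads) in Het replicates 1 to 3 and 11.85, 10.66 and 13.8 M in KO replicates 1 to 3, so that 1 read, for a gene 1 kb long, counted as 0.0546 to 0.108 RPKM. Genes at a value of at least 1 numbered 14917 to 16332 per library. Ribosomal-RNA-like genes took 19.1% to 40.6% of the summed values. Differences are log2 KO minus Het of the level plus 0.5, with the standard error (SE). A call means an adjusted p under 0.05 in limma with Benjamini-Hochberg adjustment over all genes tested, and "rose" and "fell" are used for such calls. The SD of a group mean is over n = 3 libraries.

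Markers of the named cell type were high, and those of Sertoli and Leydig cells were low against testis. The summed level of 20 spermatocyte markers was 3960, 3160 and 5540 in Het and 1640, 1470 and 1620 in KO, against 3160, 2370 and 2010 in Het testis. Het replicate 3 was the highest of all, the genotypes did not overlap, and the KO spermatocyte libraries lay below every Het testis library. The KO spermatocyte libraries lay above every KO testis library, at 1170, 1080 and 1040. The median spermatocyte marker was 0.55 higher on the log2 scale in Het spermatocytes than in Het testis, and the median spermatogonial marker 0.59 higher. The testis values were deposited in another unit, FPKM (fragments instead of reads), and the fractions were rescaled separately, so they share no common scale. Small offsets between spermatocyte and testis libraries, in these medians and in the sums, therefore cannot be read as enrichment or depletion. Across the 27 Sertoli cell markers the sum was 113 to 190 in Het and 79.7 to 160 in KO, against 2820 to 3530 in Het testis, and all 27 were lower in Het spermatocytes than in Het testis. The 14 Leydig markers summed to 10.3 to 17.4 in the spermatocyte libraries, with 11 of them at a mean under 1. The 15 myoid and stromal markers stood closer to testis, at 93.4 to 292 against 249 to 378 in Het testis. Endothelial markers (10) summed to 1.73 to 2.69, erythroid markers (7 in the tables, 2 at 0 throughout) to 0.0664 to 0.597, and the 16 macrophage markers to 8.51 to 18.1 in Het and 20.1 to 26.2 in KO. Spermatogonial markers (17) did not stand below testis: their sum was 346 to 454 in Het and 566 to 661 in KO, against 253 to 312 in Het testis.

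Of the 19 spermatocyte markers tested, 14 fell and none rose; falls were 9, 12 and 10 of 16 without Het replicates 1, 2 and 3 in turn. Sycp1, which encodes the transverse filament of the synaptonemal complex, was at 303, 232 and 241 in Het and 290, 239 and 280 in KO, a difference of 0.06 ± 0.13 (SE). Sycp3, an axis component, had group means of 402 ± 38.6 (SD) and 390 ± 22.7 (SD). Both genes overlapped between the genotypes and were not called. Of the exonic bases of Sycp3, 52.2% lie under Chpt1 on the opposite strand, which limits its values. Spink2, a protease inhibitor of the acrosome, was at 73.3, 59.6 and 157 in Het and at 1.59, 2.07 and 1.09 in KO, and fell by 5.44 ± 0.36 (SE) on the log2 scale (adjusted p = 0.00012). Meig1, needed for flagellum assembly, fell from 219 ± 96.4 (SD) to 11.7 ± 2.67 (SD). In such bulk libraries, fewer cells of a stage and less RNA per cell cannot be told apart.

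Zfp541 itself was measured in every library (ENSMUSG00000078796.4, chromosome 7, 16061814 to 16096334, GRCm38). Its level was 41.3, 32.2 and 57.2 in Het replicates 1 to 3 and 13.4, 11.8 and 11.5 in KO replicates 1 to 3. All 3 KO libraries lay below all Het libraries, and the transcript was reduced rather than absent, from 43.6 ± 12.6 (SD) to 12.2 ± 1.01 (SD). The difference was −1.75 ± 0.20 (SE) on the log2 scale (limma, adjusted p = 0.000794), and −1.91 to −1.50 when each library was left out in turn. A gene-level value does not show whether the remaining reads cover the deleted part.

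Among the 6 genes for known or related partners of the protein, 1 fell and 2 rose. Kctd19, encoding a partner of ZFP541, was at 94.3, 79.8 and 157 in Het and 26.5, 29.2 and 31.4 in KO, and fell by 1.85 ± 0.24 (SE) on the log2 scale (adjusted p = 0.00132). Hdac2, a class I histone deacetylase, was at 34.3, 32.0 and 31.3 in Het and 44.9, 44.7 and 44.2 in KO, a rise of 0.45 ± 0.09 (SE) with adjusted p = 0.00658. Each KO library was above each Het library for Hdac2. Trerf1, an ELM2 and SANT protein, rose by 0.75 ± 0.12 (SE). Hdac1, the paralog of Hdac2, was not called at −0.04 ± 0.12 (SE) and changed sign with the scaling and with the libraries used; 35.3% of its 50-base stretches occur in another gene. Dnttip1 at −0.10 ± 0.09 (SE) and Elmsan1 at 0.17 ± 0.19 (SE) were not called either, and Dnttip1 also changed sign on the deposited scale.

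The genotypes differed across a large part of the transcriptome, with more and deeper falls than rises. Of 15904 genes tested, 4075 (25.6%) were lower and 1481 (9.31%) were higher in KO, 34.9% in all. Falls of at least 1 on the log2 scale numbered 2303, of at least 2 numbered 1080 and of at least 4 numbered 236. Rises of at least 1 numbered 61, and 11 of these were protein-coding; all 12 rises of at least 2 were small RNA genes. The median was −1.16 over the falls and 0.52 over the rises. In 412 genes the mean level was at least 5 in Het and under 1 in KO, and in 0 genes was it at least 5 in KO and under 1 in Het. All KO libraries lay below all Het libraries in 5178 genes (32.6%) and above them in 3169 (19.9%).

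The genes that fell held a large share of the message. The 3026 protein-coding genes that fell made up 33.3%, 31.5% and 42.9% of the summed protein-coding level in Het replicates 1 to 3 and 17.0% to 17.5% in KO. The 658 of them that fell by at least 2 went from 8.82%, 8.31% and 14.5% to between 1.06% and 1.25%. Het replicate 3 had the highest share in each case. The 1287 protein-coding genes that rose, which include 7 highly expressed genes of the mitochondrial genome, took 11.8% to 16.2% in Het and 22.5% to 24.4% in KO. These sets were chosen by their calls in the same libraries, so the direction of each shift was fixed and only its size is described.

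The balance of rises and falls moved with the scaling. On the values as deposited, with no rescaling, 3986 genes were higher and 3351 lower, so that 54.3% of calls were rises against 26.7% after rescaling, and the median of all genes moved by 0.22. With median-of-ratios scaling the calls were 2018 and 3567. All 1481 rises remained called as rises under both of these scalings, and 3347 and 3564 of the 4075 falls remained called as falls. Het replicate 3 stood apart from the other Het libraries, and without it 1513 genes were higher and 2762 lower. Without KO replicate 2 or KO replicate 3 the rises fell to 667 and 719, and without Het replicate 1 the falls were 2332 and the rises 999.

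**Figure D1:**
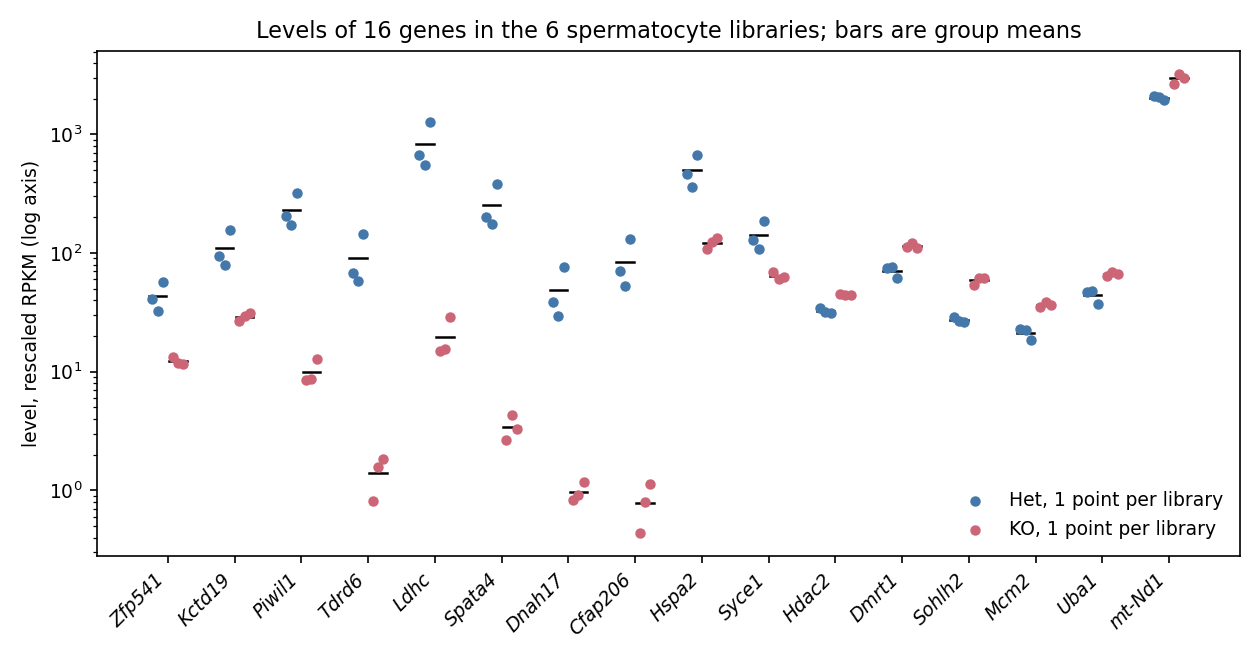
Level of 16 genes in each of the 6 spermatocyte libraries, on a log axis of rescaled RPKM, with points for libraries and bars for group means. Zfp541, Kctd19, Piwil1, Tdrd6, Ldhc, Spata4, Dnah17, Cfap206, Hspa2 and Syce1 are lower in all KO libraries, and Hdac2, Dmrt1, Sohlh2, Mcm2, Uba1 and mt-Nd1 are higher in all of them.

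**Figure D2:**
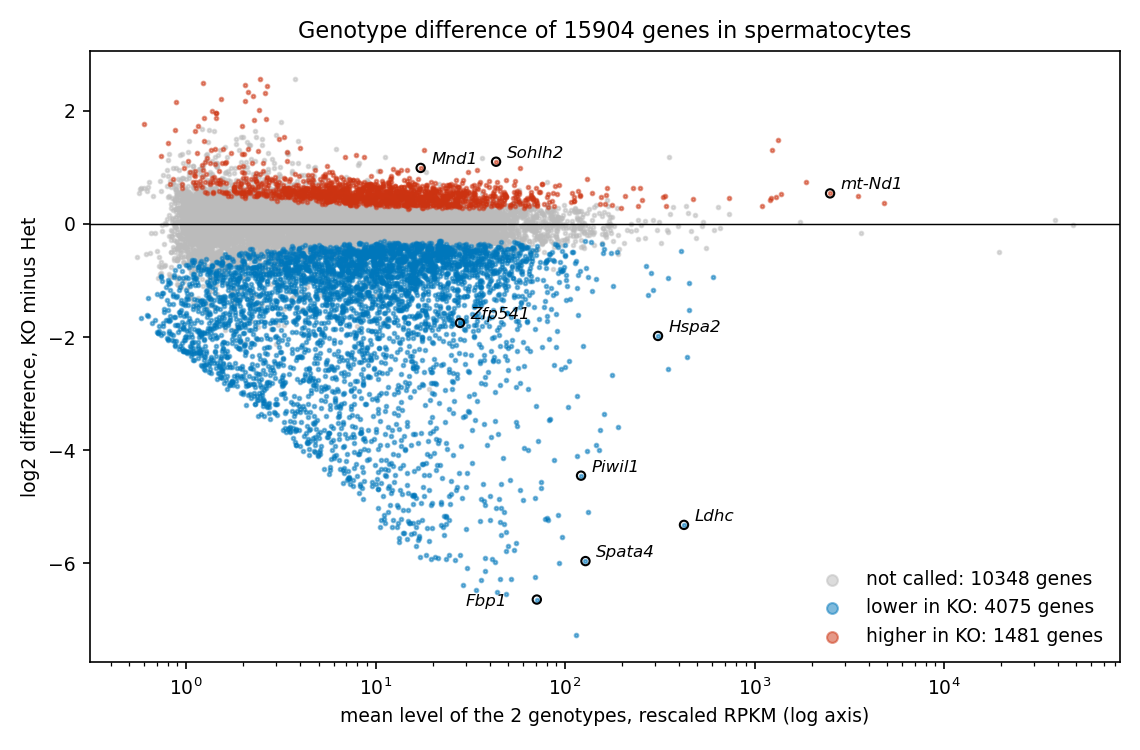
Log2 difference KO minus Het against mean level for the 15904 genes tested, with the 4075 falls and 1481 rises coloured. Falls reach below −6 on the log2 scale, while most rises stay under 1.

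The largest falls among protein-coding genes took well expressed genes to levels of a few RPKM or less. By the rule for named genes these were Fbp1, Cmtm2a, 1700029F12Rik, 1700123L14Rik, Pebp4, Adam3, Pabpc2, Plaat5, Crisp2, Cetn1, Mroh2b, Atp8b3, Cfap206, Spata4 and Spata16, with differences of −6.64 to −5.94. Fbp1, an enzyme of gluconeogenesis, was at 110, 92.7 and 221 in Het and 0.413, 0.555 and 1.87 in KO (−6.64 ± 0.44, SE; adjusted p = 0.00012). Spata4 was at 203, 176 and 380 in Het and 2.66, 4.31 and 3.26 in KO (−5.96 ± 0.30, SE; adjusted p = 0.000109). Spata16, a Golgi protein needed to form the acrosome, was at 39.3, 34.1 and 82.8 in Het and 0.0739, 0.285 and 0.597 in KO. Atp8b3, a phospholipid flippase of the acrosome, went from 142, 114 and 293 to 1.39, 2.11 and 3.21. In each of these genes Het replicate 3 was the highest library and no KO library came near any Het library. Of the 15, Cmtm2a shares 37.6% of its 50-base stretches with another gene, and 11.1% of the exonic bases of Spata4 lie under a gene on the opposite strand. The strand setting of the counting is not given in the sources used here.

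Promoters of 4 of these genes and of Sohlh2, one of the largest rises by the same rule, are shown because each holds a letter motif whose share is given next. They run from 250 bases before to 50 after the start, in the GRCm38.p6 RefSeq annotation, 5′ to 3′ on the gene's strand, with the match in capitals. Spata4 (chr8:54600531-54600830, plus strand) holds the partial X-box GTTGCC, the core recognised by RFX factors, at −6. Fbp1 (chr13:62888233-62888532, minus strand) holds it on the other strand at −75. Atp8b3 (chr10:80539075-80539374, minus strand) and Spata16 (chr3:26637381-26637680, plus strand) hold the MYB motif CAACGG on the other strand, at 9 and 44. Sohlh2 (chr3:55181794-55182093, plus strand) holds the partial CRE TGACGT, a site form of CREB and CREM factors, on the other strand at −85. The motifs do not separate falls from rises. Of the other largest rises, Pth1r holds GTTGCC at −219, Igfbp4 TAACGG at −126 and Csk CAACGG on the other strand at 24. The rises Ajuba, Asns, Dusp2, Mnd1, Nlrp4c, Patz1 and Smo hold none of the motifs searched. Nor do the falls Cfap206, Crisp2, Cmtm2a, Mroh2b and 1700029F12Rik.
Spata4: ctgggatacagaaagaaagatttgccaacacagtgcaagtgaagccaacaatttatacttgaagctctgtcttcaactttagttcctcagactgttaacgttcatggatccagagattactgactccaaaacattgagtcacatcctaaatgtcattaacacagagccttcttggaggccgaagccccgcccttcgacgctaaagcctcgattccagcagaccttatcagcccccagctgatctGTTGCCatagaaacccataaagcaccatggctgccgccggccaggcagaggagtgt
Fbp1: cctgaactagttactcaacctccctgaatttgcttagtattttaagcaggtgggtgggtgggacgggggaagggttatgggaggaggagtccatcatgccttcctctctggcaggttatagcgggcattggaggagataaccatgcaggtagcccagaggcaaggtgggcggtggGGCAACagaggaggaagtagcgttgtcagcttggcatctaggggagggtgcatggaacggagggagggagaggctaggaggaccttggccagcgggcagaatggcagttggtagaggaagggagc
Atp8b3: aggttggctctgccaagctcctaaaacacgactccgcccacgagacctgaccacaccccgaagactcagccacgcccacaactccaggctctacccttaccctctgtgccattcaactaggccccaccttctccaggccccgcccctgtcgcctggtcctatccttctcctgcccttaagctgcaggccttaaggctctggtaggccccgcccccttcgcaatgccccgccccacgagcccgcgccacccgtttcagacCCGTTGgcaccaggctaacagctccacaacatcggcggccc
Spata16: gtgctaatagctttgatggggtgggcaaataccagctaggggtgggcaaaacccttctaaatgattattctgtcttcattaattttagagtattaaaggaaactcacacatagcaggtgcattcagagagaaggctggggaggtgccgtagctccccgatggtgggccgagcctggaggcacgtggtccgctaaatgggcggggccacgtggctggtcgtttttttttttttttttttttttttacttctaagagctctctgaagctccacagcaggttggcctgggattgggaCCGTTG
Sohlh2: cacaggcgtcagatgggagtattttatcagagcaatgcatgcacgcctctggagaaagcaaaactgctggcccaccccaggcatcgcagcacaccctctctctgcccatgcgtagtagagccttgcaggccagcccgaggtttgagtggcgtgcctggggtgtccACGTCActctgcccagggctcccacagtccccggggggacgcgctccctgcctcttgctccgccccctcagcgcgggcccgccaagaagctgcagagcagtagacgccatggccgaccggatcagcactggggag

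Both strands were searched in the 9410 of 11906 tested protein-coding genes that had a promoter in the table. A gene counted if any of its promoters held the letters. GTTGCC stood in 15.5% of these genes and in 20.2% of those that fell. Its share was 28.8% for falls of at least 2 and 33.1% for falls of at least 4, against 13% for rises. TAACGG or CAACGG stood in 13.1% of all, 18.9% and 23.1% of genes that fell by at least 2 and at least 4, and 10.9% of rises. The partial CRE TGACGT went the other way, from 13.5% of all to 9.27% and 5.79%, and its share among rises, 12.8%, was not above that of all genes. E2F letters (TTTCCCGC) were in 2.51% of all and 4.04% of rises, and NRF1 letters (GCGCATGC) in 6.7% and 5.87%. Over all 32851 promoters of that length in the table the count was per promoter, which is another measure than the shares of genes. There the shares were 12.5% for GTTGCC, 7.68% for the MYB letters, 7.51% for TGACGT, 1.07% for E2F and 2.71% for NRF1. The falls of at least 2 and 4 with a promoter numbered 507 and 121. These are descriptions of letters with no test, and the sets differ in the number of genes.

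Genes that drive transcription in pachytene were among those reduced. Of 23 tested regulators of this stage, 13 fell and 3 rose, with a median of −0.69 against −0.05 over all genes. Gtf2a1l, the germ-cell form of a TFIIA subunit, was at 23.2, 18.7 and 44.6 in Het and 0.662, 0.637 and 0.562 in KO, and fell by 4.61 ± 0.30 (SE) on the log2 scale (adjusted p = 0.00012). Rfx2, a factor that drives ciliary and flagellar genes, was at 33.1, 27.9 and 50.6 against 8.18, 7.71 and 8.84 (−2.07 ± 0.21, SE), and Rfx4 fell by 3.11. The groups did not overlap for any of these. Brdt, a bromodomain protein that reads acetylated histones, fell by 0.86. Cdyl, a chromodomain protein, rose by 0.68. The list had 8 falls of 21 tested without Het replicate 1, and 1 rise without KO replicate 3, and its median was −0.33 without Het replicate 3.

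The piRNA pathway, by which PIWI proteins and small RNAs silence transposons and shape pachytene transcripts, was unevenly reduced. Of 28 tested members 14 fell and 1 rose (median −0.55). Piwil1, the PIWI protein of pachytene, was at 207, 171 and 319 in Het and 8.47, 8.73 and 12.7 in KO, a fall of 4.45 ± 0.25 (SE) with adjusted p = 0.000109. Tdrd6, a tudor protein of the chromatoid body, went from 68.1, 57.7 and 145 to 0.818, 1.58 and 1.84 (−5.49 ± 0.37, SE). No KO library approached a Het library in either gene. Ddx25, a helicase of the chromatoid body, fell by 1.80. Fkbp6, a chaperone of the pathway, was the member that rose, by 0.38 ± 0.09 (SE).

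RNA-binding proteins for storing and translating germ-cell messages moved in both directions, with 14 of 37 falling and 6 rising (median −0.17). Pabpc2 and Pabpc6, poly(A)-binding proteins of germ cells, had differences of −6.28 and −4.60, both falls. Ybx3, a Y-box protein that holds mRNA in storage, was at 228, 196 and 434 in Het and 17.2, 22.5 and 24.4 in KO (−3.64 ± 0.30, SE; adjusted p = 0.000209). Its relative Ybx2 fell from 745 ± 264 (SD) to 140 ± 4.65 (SD). Cpeb1, which binds polyadenylation elements, rose by 0.58 ± 0.11 (SE), and the RNA-binding protein gene Elavl2 rose by 0.60 ± 0.13 (SE). The median of the list was 0.08 on the deposited scale.

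Most tested components of the sperm flagellum fell. Over lists for dyneins and their assembly factors, cilia-and-flagella-associated proteins with spokes and tektins, intraflagellar transport, the fibrous sheath, and ion channels of motility, 163 genes were tested, 145 fell, 0 rose and 87 fell by at least 2. The ion channel list had 1 rise without Het replicate 3, and these lists together had 3 rises on the deposited scale and 3 with array weights. For the axonemal dyneins and assembly factors, 39 of 41 tested fell (median −2.81). Dnah17, a heavy chain of the outer arm, was at 39.0, 29.6 and 76.9 in Het and 0.823, 0.911 and 1.18 in KO (−4.95 ± 0.33, SE; adjusted p = 0.00012). Zmynd10, which assembles dynein arms in the cytoplasm, was at 89.8, 76.6 and 171 against 3.04, 3.31 and 4.46. Every KO library was far below every Het library in both genes.

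The other flagellar lists differed in depth. For the CFAP, spoke and tektin list 48 of 49 tested fell, with the deepest median of these lists at −3.29. Cfap206, a radial spoke adaptor, went from 70.9, 52.6 and 131 to 0.44, 0.795 and 1.12, and Cfap52 from 26.9, 20.9 and 47.6 to 0.135, 0.148 and 0.286. The intraflagellar transport and BBS list, whose proteins carry cargo along cilia in most tissues, fell in 33 of 39 but with a median of −1.09, and Ift140 went from 65.0, 53.1 and 109 to 12.6, 12.0 and 14.5. Fibrous sheath and outer dense fibre genes fell in 10 of 14 tested, and 22 were listed. Septin12, of the annulus, was at 32.5, 31.4 and 63.5 in Het and 0, 0.253 and 0.318 in KO. Of 31 ion channels and transporters of motility that have values, 20 were tested and 15 fell (median −2.46), among them the sperm sodium-proton exchanger Slc9c1, at 11.7, 10.6 and 29.4 against 0.0192, 0.0423 and 0.0818. Because a gene had to reach 1 in 3 libraries, leaving out a Het library lowered the number tested, and the CFAP list then had 28 falls of 28 or 29. The ion channels had 10 falls of 15 without any 1 of the Het replicates, with a median of −1.37 without Het replicate 3. With no filter on low values their median over all 31 was −0.33.

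Acrosome and head genes fell too, among those with enough reads to test. Of 47 acrosome and gamete-interaction genes listed, 24 were tested and 18 of these fell, with 0 rising and a median of −2.47. Crisp2, a secreted acrosomal protein, was at 107, 92.5 and 211 in Het and 0.61, 1.34 and 1.91 in KO (−6.24 ± 0.38, SE; adjusted p = 0.000109). Dkkl1, another acrosomal protein, was at 103, 87.5 and 215 against 3.22, 3.92 and 4.5. The 16 round spermatid markers summed to 39.8, 39.6 and 55.0 in Het and 21.6, 19.2 and 17.4 in KO, without overlap, and 8 of them had a mean under 1. Of the 8 tested 4 fell, but 0 of 4 without Het replicate 2 and 2 without Het replicate 1 or 3. Their part in the flagellar and acrosomal falls was not tested. Prm1, a protamine, was at 2.36, 2.44 and 1.46 in Het and 0.547, 0.602 and 0.465 in KO. Head, neck and manchette genes fell in 21 of 27 tested, with Cetn1, a centrin of the centriole, falling by 6.14, and ADAM proteins and their chaperones in 8 of 18 (median −0.13). Spermatid chromatin genes fell in 7 of 17. With no filter on low values the acrosome list had 17 falls among 39 and a median of −0.17. It had 10 falls of 18 (median −1.49) without Het replicate 1 and 13 of 19 (median −1.01) without Het replicate 2. For the other lists, without Het replicate 2 the head list had 13 of 19, without any 1 of the Het replicates the ADAM list had 4 of 14, and without Het replicate 3 the spermatid chromatin list had 4 falls. The ADAM list also had 2 rises without Het replicate 1 and 1 without Het replicate 3 or KO replicate 3.

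Metabolic enzymes moved in both directions. Of 29 tested genes of glycolysis and lactate handling 16 fell and 6 rose. Ldhc, the testis form of lactate dehydrogenase, was at 672, 549 and 1270 in Het and 15, 15.5 and 28.8 in KO (−5.32 ± 0.36, SE; adjusted p = 0.000121). Pgam2 went from 138, 121 and 281 to 4.18, 4.19 and 4.27, and the glucose transporter Slc2a3 from 207, 169 and 395 to 4.42, 6.76 and 9.17. In the same pathway Slc16a1, a lactate and pyruvate carrier, rose from 26.3, 22.3 and 22.3 to 32.4, 34.8 and 37.1 (0.55 ± 0.11, SE; adjusted p = 0.00745). Pkm at 0.53 and Pgam1 at 0.56 also rose, but 25.8% and 36.2% of their 50-base stretches occur in other genes. Among 20 tested autosomal retrogenes derived from X-linked parents, whose copies stand in while the X is silent, 17 fell and 0 rose, and the glycerol kinase copy Gykl1 went from 22.1, 19.1 and 46.9 to 0.042, 0.0923 and 0.107. The retrogene list had 10 falls of 15 and of 14 when Het replicate 1 or 2 was left out.

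All 7 tested protein genes of the mitochondrial genome rose, with a median of 0.47. For mt-Nd1, a subunit of complex I, the level was 2100, 2060 and 1940 in Het and 2670, 3250 and 3010 in KO (0.54 ± 0.10, SE; adjusted p = 0.00601), and mt-Cytb went from 3020, 2960 and 2790 to 3870, 4440 and 4040. Each KO library was above each Het library. The other 6 of the 13, such as mt-Co2 and mt-Atp6, were listed near 0 in every library. How reads over the mitochondrial genes were assigned is not given in the sources used here, which limits the values of all 13. Nuclear genes of oxidative phosphorylation fell in 17 of 47 and rose in 2, and the deepest falls were testis isoforms, namely Cox8c from 220, 207 and 398 to 15.5, 15.9 and 20.3, Cox6b2 by 2.51 and Cyct, the testis cytochrome c, by 2.05. Redox genes fell in 10 of 25 and rose in 7, with Prdx6b at −5.51 and Gsr, glutathione reductase, rising from 45.4, 46.4 and 32.9 to 61.4, 73.6 and 63.9. Mitochondrial carriers fell in 7 of 32 (21.9%) and rose in 4 (12.5%), shares near the 25.6% and 9.31% of all genes. Their rises were 2 without Het replicate 1, and 2, 1 and 0 without KO replicates 1, 2 and 3. The oxidative phosphorylation falls were 10 without Het replicate 1 and 10, 11 and 8 without KO replicates 1, 2 and 3 in turn, and its rises were 6 without Het replicate 2. Its median was −0.28, and −0.03 on the deposited scale, where the carriers had 8 rises and 5 falls. The redox list had 6 falls and 4 rises without Het replicate 1, and 3 rises without KO replicate 2.

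Several germ-cell forms of kinases, chaperones and the protein degradation machinery fell, while some other members of these lists rose. Testis kinases and phosphatases fell in 14 of 25 and rose in 2, and Ppp3r2, a testis calcineurin subunit, was at 30.9, 29.0 and 73.9 in Het and 0.258, 0.511 and 0.833 in KO. Camk4, a calmodulin-dependent kinase, rose by 0.79 ± 0.16 (SE). Heat shock and chaperone genes fell in 12 of 28 and rose in 5. Hspa2, the germ-cell HSP70 needed to leave prophase, was at 461, 357 and 674 against 108, 123 and 134 (−1.98 ± 0.22, SE; adjusted p = 0.000738), and Hspb9 fell by 5.76. Psma8, the spermatocyte form of a proteasome core subunit, was at 86.0, 74.3 and 101 against 22.0, 25.7 and 30.7. Of 37 proteasome genes 8 fell (21.6%) and 2 rose (5.41%), both shares below those of all genes (25.6% and 9.31%). The median of the proteasome list was 0.02. Ubiquitin ligases and conjugating enzymes of germ cells fell in 17 of 31 and rose in 3, led by Marchf10, at 38.1, 31.7 and 75.6 against 0.221, 0.384 and 0.281; 21.3% of its exonic bases lie under another gene on the opposite strand. The proteasome falls were 5 without Het replicate 1 and 4 without KO replicate 1, 2 or 3, and the ubiquitin falls were 9 and 11 without Het replicate 1 and KO replicate 1. On the deposited scale 17 proteasome genes rose and 5 fell. Chaperone rises were 3 without Het replicate 1 or KO replicate 2.

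Tubulins and tubulin ligases fell in 17 of 31 and rose in 2. Kinesins fell in 5 of 29 (17.2%) and rose in 7 (24.1%), against 25.6% and 9.31% of all genes. Ttll8, a glycylase of axonemal tubulin, went from 10.1, 8.48 and 17.9 to 0.524, 0.576 and 0.542, and Kif9, a kinesin of the motile axoneme, from 29.6, 24.0 and 54.4 to 5.07, 3.64 and 4.48. Against these, Kif5c, a cargo kinesin, rose by 0.68 ± 0.14 (SE) and the ligase-family gene Ttll12 by 0.64 ± 0.13 (SE). With Het replicate 1 left out the tubulin list had 11 falls of 27 and the kinesins 3, and the kinesins had 4, 2 and 2 rises without KO replicates 1, 2 and 3 in turn. With no filter on low values the kinesins had 2 rises and 5 falls among 34.

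**Figure D3:**
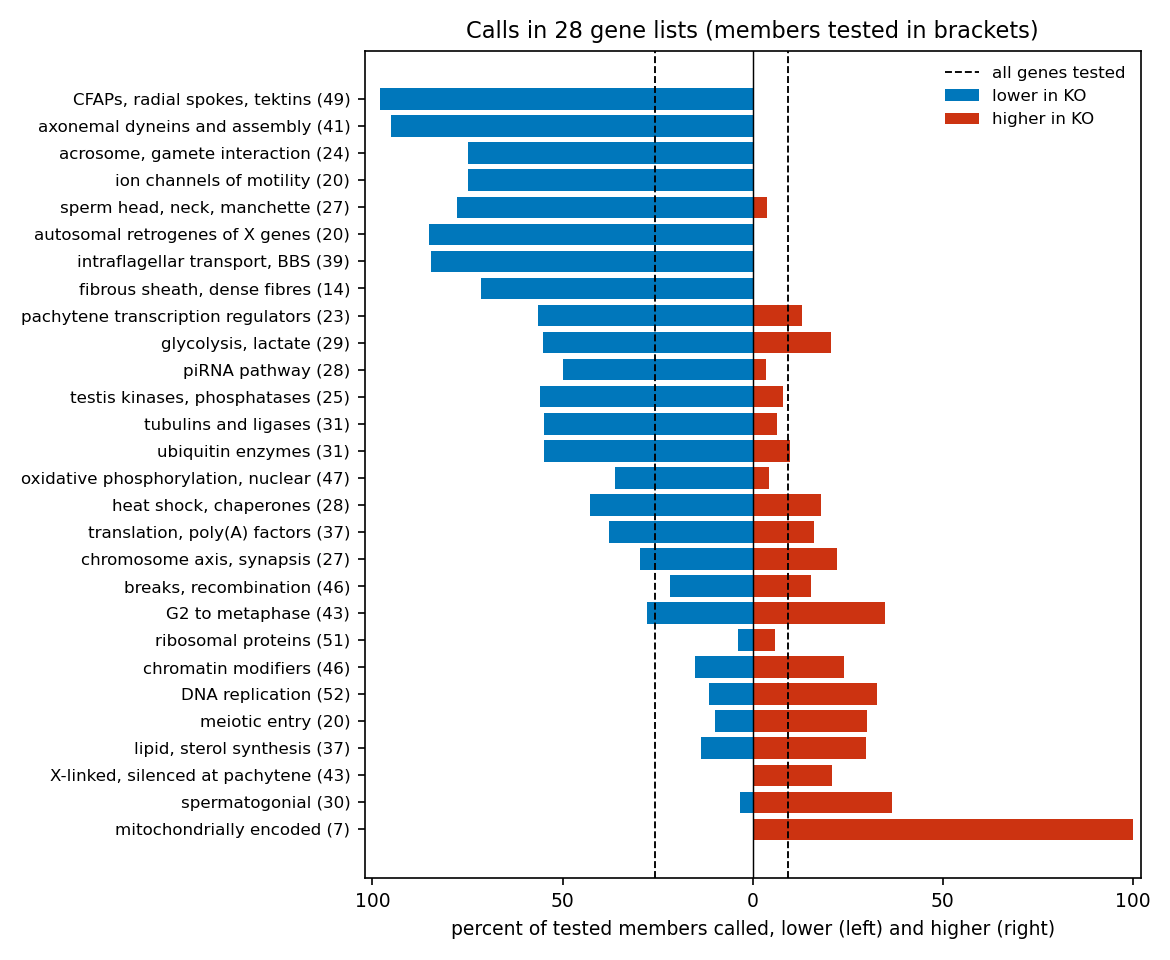
Percent of tested members called lower (left of 0) and higher (right of 0) in KO for 28 gene lists, with dashed lines at the shares among all 15904 genes, 25.6% and 9.31%. Flagellar lists lie furthest on the lower side, with 98.0% for the CFAP list and 95.1% for dyneins, and the 7 mitochondrially encoded genes lie at 100% on the higher side.

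The rises were shallow. Of 1481, 844 were at least 0.5 on the log2 scale, and the 15 largest among protein-coding genes by the rule were between 0.81 and 1.18. At the top stood Gm11808, which shares 94.5% of its 50-base stretches with another gene and whose call was lost without Het replicate 1 or 3 or KO replicate 1 or 2, with adjusted p up to 0.066. Sohlh2, a helix-loop-helix factor of differentiating spermatogonia, was at 29.1, 26.8 and 26.3 in Het and 54.1, 61.1 and 62.2 in KO (1.10 ± 0.10, SE; adjusted p = 0.000262). Pth1r, a parathyroid hormone receptor, went from 8.69, 10.9 and 7.65 to 15.5, 22.8 and 16.4, and Smo, the Hedgehog signal transducer, from 3.72, 3.87 and 3.33 to 6.25, 7.47 and 7.2. Every KO library lay above every Het library in these genes. Mnd1, Ajuba, Hmgn3, Igfbp4, Cdkn1c, Tcn2, Patz1, Dusp2, Asns, Csk and Nlrp4c made up the rest. Mnd1 shares 40.8% of its 50-base stretches with its pseudogene, and 30.7% of the exonic bases of Cdkn1c lie under another gene on the opposite strand.

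Genes of spermatogonia moved mainly upward. Of 30 tested 11 rose and 1 fell, with a median of 0.43. Dmrt1, which holds spermatogonia out of meiosis, was at 75.5, 76.8 and 61.4 in Het and 113, 122 and 110 in KO (0.69 ± 0.11, SE; adjusted p = 0.00358). Ccnd1, a cyclin of the early cell cycle, went from 19.8, 20 and 16.8 to 27.6, 33.5 and 32.0, and 23.4% of its exonic bases lie under another gene on the opposite strand. Id4, an inhibitor of helix-loop-helix factors known from stem spermatogonia, was the member that fell, from 21.4, 16.7 and 28 to 4.95, 5.27 and 7.15. The summed spermatogonial markers moved with genotype too, at 346 to 454 in Het and 566 to 661 in KO. Sohlh2, Dmrt1 and Id4 of this list are among the markers, so the sum is not a measure separate from these genes. The part of spermatogonia in these rises was not tested. The list had 7 rises when Het replicate 1 or KO replicate 2 or 3 was left out. Without Het replicate 3, which had the lowest marker sum, 11 rises and 2 falls were called.

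Genes of meiotic entry and DNA replication held more rises than falls. Of 20 genes of meiotic entry 6 rose and 2 fell (median 0.23). Stra8, the retinoic acid target that starts meiosis, was at 84.1, 71.8 and 56.4 in Het and 106, 107 and 94.4 in KO, a rise of 0.54 ± 0.15 (SE) with adjusted p = 0.0287 that was no longer called without KO replicate 1 or 2 (adjusted p up to 0.0701). Esx1, an X-linked homeobox gene, rose by 0.56 ± 0.10 (SE), and Spdya, a CDK2 activator at telomeres, fell from 52.3, 43.5 and 63.6 to 32.7, 23.8 and 26.7. Replication genes rose in 17 of 52 and fell in 6. Mcm2 and Mcm4, of the replicative helicase, went from 23.0, 22.5 and 18.4 to 35.3, 38.8 and 36.4 and from 28.1, 24.5 and 23.3 to 41.0, 41.0 and 40.7. Rnaseh2a, a subunit that removes RNA from DNA, fell from 31.2, 32.1 and 71.6 to 6.34, 8.69 and 7.41. The meiotic entry list had 3 rises without KO replicate 2, and medians of 0.38 and 0.4 without Het replicate 1 and KO replicate 2.

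Corepressors and chromatin modifiers went both ways. Among 22 tested corepressor and deacetylase genes outside the partner list, 7 rose and 4 fell (median −0.06, and 0.18 on the deposited scale). Rcor2 and Rcor3, which encode related ELM2 and SANT corepressors, moved oppositely: Rcor2 rose from 23.2, 23.7 and 17.8 to 33.2, 39.1 and 34.8, and Rcor3 fell from 5.45, 4.65 and 10.5 to 0.722, 0.801 and 1.07. Hdac6 rose by 0.59 ± 0.12 (SE). Of 46 modifiers of DNA methylation and chromatin 11 rose and 7 fell. Dnmt3a, a de novo DNA methyltransferase, and Ehmt1, a histone H3 methyltransferase, rose by 0.69 and 0.70, and Morc2b, needed in meiotic prophase, fell from 31.0, 24.4 and 52.6 to 1.54, 2.14 and 2.16. The corepressors had 3 rises and 1 fall without Het replicate 1, and 3 rises without KO replicate 2 or 3, with 2 falls without KO replicate 1 or 2. The modifiers had 4 falls without KO replicate 1 or 2, and 7 rises without KO replicate 3.

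X-linked genes held many rises and few falls. Among 418 tested protein-coding genes of the X chromosome 74 rose and 2 fell, with a median of 0.31, against 1205 rises and 3024 falls among 11472 autosomal genes and a median of −0.05. The autosomal counts were 793 rises and 1872 falls without Het replicate 1, and rises were 543 and 578 without KO replicates 2 and 3. On the deposited scale the medians were 0.53 and 0.17. In a list of X-linked genes that are silenced in the sex body 9 of 43 rose, 0 fell, and 1 had a difference under 0 (median 0.34). Uba1, the ubiquitin-activating enzyme, was at 47.1, 48.3 and 37.4 in Het and 63.9, 69.7 and 66.2 in KO (0.59 ± 0.12, SE; adjusted p = 0.00839), and Tex11, a meiotic protein, went from 54.3, 45.6 and 40.4 to 70.5, 66.7 and 64.8. Het and KO libraries did not overlap in either. Spermatogonia carry an active X, and their summed markers moved the same way as these genes; the part of this in the X-linked rises was not tested. The 7 tested genes of a Y-linked list had 1 rise. Without KO replicate 1, 2 or 3 the X-linked rises were 33, 24 and 40, with medians of 0.22 to 0.42 over all leave-one-out fits, and without KO replicate 1 the silenced list had 5 rises.

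**Figure D4:**
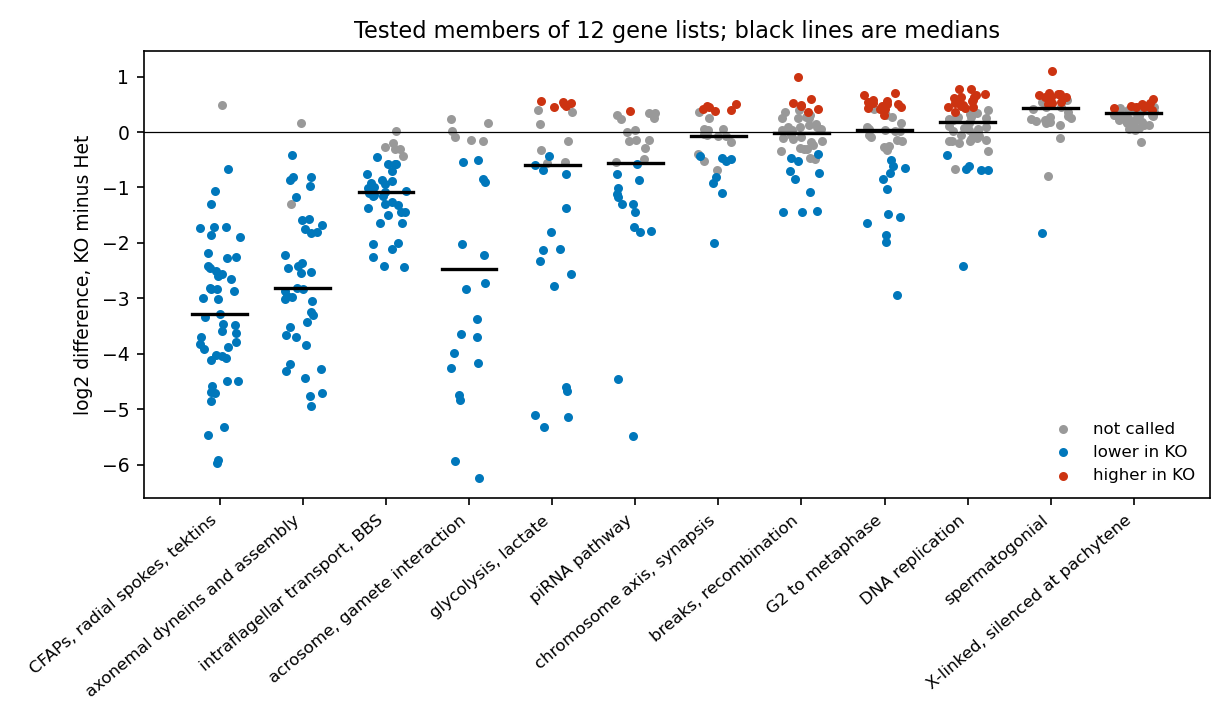
Log2 difference KO minus Het of each tested member of 12 gene lists, a point per gene, coloured by whether the gene was called lower, higher or neither, with the list median as a black line. Dynein and CFAP genes lie almost wholly below 0, all but 1 of the 43 X-linked silenced genes lie above it, and recombination and axis genes lie on both sides.

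Recombination genes moved both ways, with 7 of 46 rising and 10 falling (median −0.01). The share of falls, 21.7%, was below the 25.6% of all genes, and that of rises, 15.2%, was above their 9.31%. The balance turned with the setting, to 14 rises and 7 falls on the deposited scale and 6 and 22 with array weights. Spo11, which cuts DNA to start recombination, was at 27.4, 21.6 and 24.7 in Het and 13.6, 6.61 and 7.04 in KO (−1.45 ± 0.26, SE; adjusted p = 0.00556). Mnd1 and Psmc3ip, whose proteins form the complex that aids strand invasion, moved oppositely: Mnd1 rose by 0.99 ± 0.13 (SE), from 11.5, 10 and 12.7 to 20.9, 25.7 and 22.9, and Psmc3ip fell by 1.43 ± 0.16 (SE), from 47.7, 38.2 and 60.1 to 17.7, 17.7 and 17.0. Both are hard to count, Mnd1 for its pseudogene and Psmc3ip because 21.2% of its exonic bases lie under Mlx on the opposite strand. Prr19, a crossover factor, fell from 22.1, 23.6 and 34.4 to 9.76, 10.7 and 7.76. Without KO replicate 1 the rises were 3, without KO replicate 2 there were 4 rises and 5 falls, and without Het replicate 1 or KO replicate 3 there were 5 falls.

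The chromosome axis list had 6 rises (22.2%) and 8 falls (29.6%) among 27 (median −0.07), against 9.31% and 25.6% of all genes. On the deposited scale it had 8 rises and 4 falls. Syce1, a central element of the synaptonemal complex, was at 130, 109 and 185 in Het and 68.8, 60.2 and 62.6 in KO (−1.10 ± 0.19, SE; adjusted p = 0.00454). Meikin, a kinetochore protein of the first meiotic division, went from 13.6, 10.6 and 18.2 to 3.38, 2.42 and 3.4, and Trip13, which remodels axis proteins, rose by 0.45 ± 0.10 (SE). Of 26 sex-body and checkpoint genes 2 rose and 4 fell, against 8 and 1 on the deposited scale, both shares being below those of all genes after rescaling; Macroh2a1, a histone variant of the sex body, went from 25.9, 20.9 and 35.8 to 8.16, 9.38 and 9.54. Falls in the axis list numbered 4 with Het replicate 1 or 3 or KO replicate 3 left out and 5 without KO replicate 2, and its rises 3 with KO replicate 1 or 3 left out. The sex-body list had 1 fall with Het replicate 1 or 3 or KO replicate 2 or 3 left out.

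Genes listed for the passage from G2 into the meiotic divisions divided, with 15 of 43 rising and 12 falling. The largest rise of the list, 0.70, was that of Ccnd1, the cyclin of the early cell cycle also listed with spermatogonia. Ccna1, the cyclin A of late prophase, was at 4.0, 5.44 and 16.3 in Het and 0.425, 0.562 and 0.506 in KO (−2.94 ± 0.46, SE; adjusted p = 0.00296), with Het replicate 3 well above the other Het libraries. Fbxo43, an inhibitor of the anaphase-promoting complex, fell from 8.21, 6.3 and 10 to 2.24, 1.81 and 1.58. The mitotic kinases Wee1, at 22.4, 20.3 and 20.1 against 31.5, 35.8 and 32.7, and Aurkb, which rose by 0.58 ± 0.11 (SE), went up. Spindle and kinetochore genes rose in 4 of 43 and fell in 8, with Incenp, a partner of Aurora B, rising by 0.43 and Cenpc1, an inner kinetochore protein, falling by 0.71. On the deposited scale 19 spindle genes rose and 6 fell, and neither share after rescaling was above that of all genes (9.31% and 25.6%). The spindle falls were 5 with Het replicate 1 or KO replicate 1 or 3 left out.

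Lipid and sterol synthesis rose in 11 of 37 and fell in 5. Insig1, a brake on sterol synthesis, went from 17.4, 20.2 and 16.9 to 28, 28.4 and 32.2 (0.69 ± 0.11, SE; adjusted p = 0.00315). Genes for 2 acyl-CoA synthetases moved oppositely: Acsl1 rose from 5.05, 4.94 and 4.36 to 8.1, 7.78 and 7.89, and Acsl6 fell from 6.07, 4.75 and 10.6 to 0.536, 0.65 and 0.582. Cers3 and Elovl2, which make very long chain ceramides and fatty acids of the male germ line, had differences of −2.09 and −1.9, both falls. The lipid list had 5 rises without Het replicate 1, and 5 and 2 without KO replicates 2 and 3. With no filter on low values it had 3 rises and 5 falls among 42.

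Among 12 tested interferon and innate immunity genes 3 rose and 2 fell. Bst2, an interferon-induced membrane protein, was at 4.73, 5.82 and 5.32 in Het and 10.3, 9.61 and 8.45 in KO (0.78 ± 0.13, SE; adjusted p = 0.00345), and Irf3 fell by 0.87. The 16 macrophage markers summed to 13, 18.1 and 8.51 in Het and 26.2, 20.3 and 20.1 in KO, and of the 7 tested C1qa, a complement gene, rose from 0.858 ± 0.507 (SD) to 2.61 ± 0.0997 (SD). The part of macrophages in the interferon list was not tested. Ribosomal protein genes rose in 3 of 51 and fell in 2, but rose in 35 on the deposited scale, and the rises were 0 without Het replicate 1, 5 and 8 without Het replicates 2 and 3 and 1 without KO replicate 2. Splicing factors fell in 7 of 33 and rose in 2, with Khdrbs3, a STAR-family regulator, falling from 33.3, 27.4 and 46.0 to 9.13, 10.1 and 11. On the deposited scale 15 splicing genes rose and 5 fell, and their share of falls after rescaling was below the 25.6% of all genes. Immediate early genes had 1 rise and 0 falls among 25, 0 rises with Het replicate 1 or 3 or KO replicate 2 or 3 left out and 2 without Het replicate 2. Germ cell adhesion genes rose in 3 of 17 and fell in 2, and 7 and 1 on the deposited scale. Their falls were 1 with Het replicate 1 or any 1 of the KO replicates left out. Shares of falls were 16.7% for interferon, 3.92% for ribosomal and 11.8% for adhesion genes, all below the 25.6% of all genes. Their shares of rises were 25%, 5.88% and 17.6% in that order, against 9.31% of all genes.

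Long intergenic non-coding RNAs (lincRNAs) held many falls. Of 407 tested 220 fell and 10 rose (median −0.81), and of 961 antisense genes 269 fell and 40 rose (median −0.14), against 3026 falls and 1287 rises of 11906 protein-coding genes (median −0.03). Of the 236 genes that fell by at least 4, 20 were lincRNAs and 160 protein-coding. The deepest fall of all genes tested was the lincRNA Rbakdn, at 155, 147 and 383 in Het and 0.123, 1.22 and 1.77 in KO (−7.26 ± 0.55, SE; adjusted p = 0.000158), which was chosen after its values were seen. With Het replicates 1, 2 and 3 left out in turn, 62 of 262, 77 of 264 and 73 of 272 lincRNAs fell, with medians of −0.27, −0.3 and −0.33. The median level of the lincRNAs tested was 2.97 in Het and 1.28 in KO, against 9.02 and 7.38 for protein-coding genes. Low genes can pass the filter through the Het libraries alone, which favours falls among them.

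Whole testis at P18 gave a further comparison, in which the genotype difference in spermatocytes was tested against that in testis as an interaction over 12 libraries. The testis values were deposited as FPKM, and each difference was taken within its own fraction. Of 19932 genes, 247 (1.24%) had a difference more negative in spermatocytes and 12 (0.0602%) more positive. Of the 247, 237 also fell in the spermatocyte comparison, an overlap partly built in because both tests use the same spermatocyte libraries. Piwil1 had −4.45 in spermatocytes and −2.56 in testis, an interaction of −1.92 ± 0.38 (SE) with adjusted p = 0.0426, and testis levels of 145, 99.7 and 69.9 in Het and 15.4, 18 and 16.4 in KO. Septin12 and Odf4, both of the flagellum, had −5.91 and −5.40 in spermatocytes and −3.55 and −3.22 in testis. For Macroh2a1 the testis levels were 26.7, 23.9 and 23.1 in Het and 18.6, 19.9 and 21.3 in KO, a difference of −0.29 against −1.53 in spermatocytes. For Bak1, 25.5% of whose exonic bases lie under Ggnbp1 on the opposite strand, the testis difference was 0.05 and for the mitochondrial carrier Slc25a44 0.01, against −1.41 and −0.88. Zfp541 did not pass this test, at −1.23 in testis and −1.75 in spermatocytes (adjusted p = 0.324).

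These interaction calls depended on single libraries. The 247 became 97 without spermatocyte Het replicate 2, 37 and 38 without spermatocyte KO replicate 1 and 2, 154, 20 and 56 without testis Het replicates 1, 2 and 3, and 26, 22 and 21 without testis KO replicates 1, 2 and 3. The call for Macroh2a1 was lost in 8 of the 12 cases and that for Piwil1 in 9, with adjusted p up to 0.0992 and 0.115, while the interaction stayed between −1.32 and −1.04 and between −2.14 and −1.65. Sertoli cell markers summed to 2820 to 3530 in Het testis against 113 to 190 in Het spermatocytes, and the part of other cell types in the testis values was not tested.

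**Figure D5:**
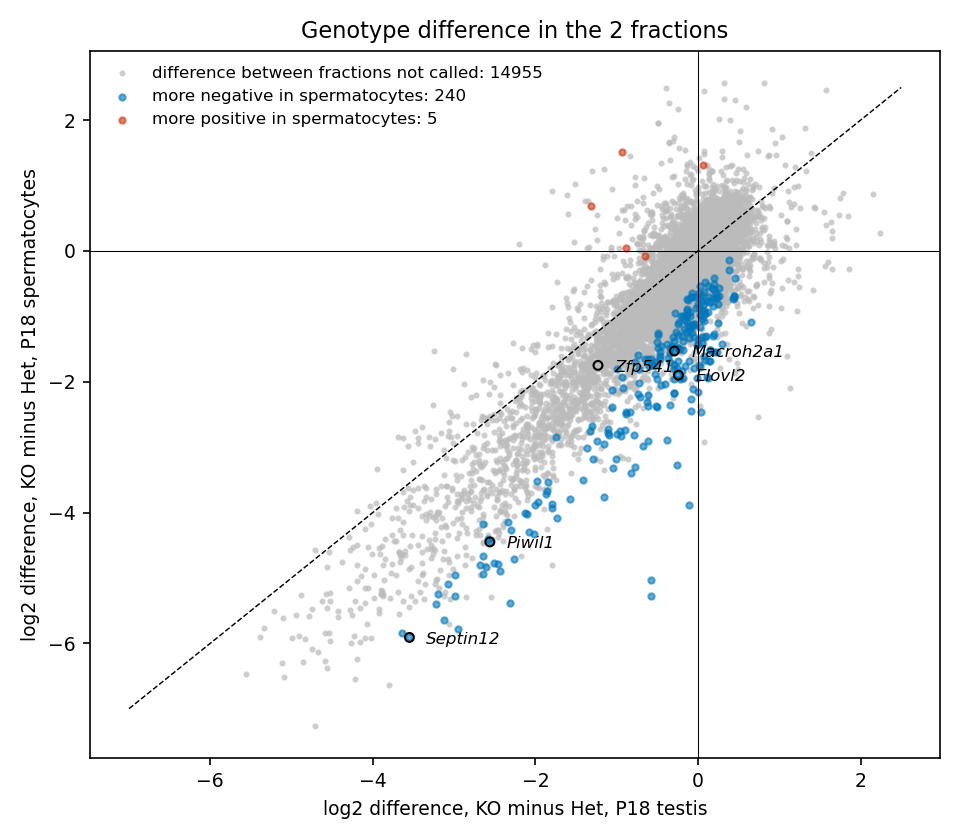
Log2 difference KO minus Het in spermatocytes against the same in whole testis at P18, a point per gene, for genes tested in both fractions. Points coloured as more negative in spermatocytes number 240 and as more positive 5, and 14955 are not called in the interaction.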

How the data were processed

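Each spermatocyte library is a deposited table of gene symbols with RPKM, and each P18 testis library 1 of FPKM, which counts fragments instead of reads; the units are those of the authors' own column names, per the file headers. Per the labels' protocols, mRNA was selected by its poly(A) tail and prepared with NEBNext Ultra II chemistry. The submitters' processing notes list edgeR 3.28.1, featureCounts, STAR 2.6.1a, CASAVA 1.9 and the build GRCm38 with no roles. The annotation release and the strand setting are not given in the sources used here.

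Rows with a shared symbol (217, holding up to 0.3% of a library's summed values) were dropped. Reads were recovered as value times merged exon length in the GENCODE GRCm38 annotation supplied; of low values (up to 10 reads) in spermatocytes, 98.99% to 99.16% came out whole within 0.02 reads. Trimmed means of M values (30% and 5% trims), computed on those reads, rescaled the deposited values. The filter kept genes that reached 1 in 3 or more libraries. The test was limma 3.58.1 (R 4.3.3) on log2(level + 0.5), with an intensity trend and robust moderation, two-sided, with Benjamini-Hochberg adjustment; this scale understates the change of low genes. As an alternative, voom on the recovered reads called 1750 rises and 4215 falls. On simulated data the spermatocyte fit recovered 6 of 67, 59 of 67 and 65 of 66 genes changed by factors of 1.5, 2 and 4, and called 13 unchanged genes, of 15554 fitted.

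The 44 functional and 9 marker lists are described by counts and medians of their tested members. The result of 1 functional list is not reported here. The comparison, members and lists were chosen with earlier results of these data known. The rule for named genes takes Zfp541, 6 partner genes, cell type markers, the 15 largest rises and falls among called protein-coding genes (mean of at least 5 in the higher group, no overlap), and from each list at most 3 called genes per direction; not all are printed. Promoters came from RefSeq, and 50-base stretches shared between genes were counted in annotated transcripts. P14 testis was not used here.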

Additional observations from a re-analysis of the deposited data

Results flagged for a closer look

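For 8 of the named genes the difference between KO and Het was more negative in spermatocytes than in whole testis by the interaction test in limma over 12 libraries. The interaction on the log2 scale was −2.44 for Septin12 and −2.23 for Odf4, both of the flagellum, and −1.92 for Piwil1. It was −1.90 for Acsl6 and −1.69 for Elovl2, which act on long fatty acids, and −1.50 for Bak1, −1.26 for Macroh2a1 and −0.91 for Slc25a44. The adjusted p was 0.0314 to 0.0454 over these genes. For each gene the sign held when any 1 of the 12 libraries was left out, and the call was lost without 8 or 9 of them.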

How the results depend on the processing

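Of 130 named genes, none changed its call with the pseudocount at 0.1 or 1, without trend or robust moderation, with the replicate block or with voom. Rises numbered 752 with no filter on low values, 3986 on the deposited scale, 2778 with array weights (whose estimation stopped before it converged) and 667 to 1815 with 1 library left out; falls numbered 2332 to 3382 with 1 library left out. The interaction gave 378 and 159 more negative genes with a pseudocount of 0.1 and 1, and 20 to 337 with 1 library left out. More positive genes numbered 5 with a mean filter of 5, 58 on the deposited scale, 7 with the replicate block and 0 to 22 with 1 library left out. The cause of these moves was not tested. Of uncalled genes, Dnttip1 changed sign on the deposited scale (0.14). Hdac1 did so on the deposited scale (0.20), with median-of-ratios scaling (0.01) and with array weights (0.03), and ranged from −0.07 to 0.10 with 1 library left out. Sycp3 did so on the deposited scale (0.21) and with median-of-ratios scaling (0.01), and ranged from −0.08 to 0.06, and Sycp1 did so with array weights (−0.15). Gm11808 and Stra8 also lost their calls with no filter.

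Same-numbered libraries of the genotypes had correlations of their deviations of 0.232, 0.053 and 0.0909, against −0.156 to 0.0287 for differently numbered ones. These values do not decide whether the replicate numbers pair the samples, and the main fit took them as unpaired. With the number as a replicate block there were 1441 rises and 4078 falls, Zfp541 stood at −1.75 (adjusted p = 0.00161 in limma), and the interaction gave 218 more negative genes. Changes by a factor of 1.5 were recovered in 8.96% of cases on simulated spermatocyte data. The simulation changed few genes and used a set spread, so this share does not measure the sensitivity of the real comparison. There the called rises had a median of 0.52 on the log2 scale.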
